A study of Homo sapiens with 6 samples.

Results

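The G1 regulators described here are 10 genes that were chosen by name: 3 D-type cyclins (*CCND1*, *CCND2* and *CCND3*), their catalytic partners *CDK4* and *CDK6*, the CDK inhibitors *CDKN1A*, *CDKN1B*, *CDKN1C* and *CDKN2C*, and the pocket protein gene *RBL2*. They are 10 of the 58735 genes in the count table. RNA-Seq was performed on the basal-like breast cancer line BT549, an established cell line, in 3 libraries from cells given the vehicle DMSO and 3 libraries from cells given AS1842856, a small molecule that binds unphosphorylated FOXO1 and hinders its binding to DNA. In both groups 100000 cells were plated per dish, treatment began the following day and lasted 48 h, and the labels carry no genetic alteration beyond those of the line itself. The dose in the labels is 200 nM, while the methods of the study name a higher concentration, and this difference was not resolved here. The comparison asks which of these genes differ in RNA level between AS1842856 and DMSO, as part of the study's search for genes under FOXO1. The study proposes that AS1842856 modulates FOXO1 and is not only an inhibitor of it. There, *FOXO1* RNAi lowered *LEF1* RNA in BT549 cells, whereas the drug raised it. A single cell line was measured, so the values describe BT549 cells.

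D-type cyclins are made in response to growth signals, bind CDK4 or CDK6, and the active kinase phosphorylates the retinoblastoma family (*RB1*, *RBL1* and *RBL2*), which releases E2F factors and lets cells enter S phase. INK4 inhibitors such as *CDKN2C* (p18) bind CDK4 and CDK6 directly, whereas the CIP/KIP inhibitors *CDKN1A* (p21), *CDKN1B* (p27) and *CDKN1C* (p57) act mainly on cyclin E-CDK2 and can also help cyclin D-CDK4 complexes assemble. As background, FOXO factors are known to act on several of these genes, and the study cites *CDKN1B* as one that they induce in some settings. This is an example and not a list of FOXO targets, and FOXO actions on the other genes are not given. The part of FOXO factors in the changes below was not tested. *CCND1* and *MYC* are known targets of beta-catenin and TCF/LEF factors.

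AS1842856-treated cells held more *CCND1* RNA (3.20-fold), more *CCND3* RNA (1.33-fold) and more *CDKN1A* RNA (1.30-fold) than DMSO-treated cells. *CDKN2C*, *CDK6*, *CDKN1B* and *RBL2* RNA fell to between 57.3% and 69.1% of the DMSO level. *CDK4* differed by less than the spread between libraries, and *CCND2* and *CDKN1C* were at or near 0 in every library. Of the 10 genes, 8 had enough counts to be tested, and 7 of these passed an adjusted p of 0.05 in edgeR's quasi-likelihood test, 3 higher and 4 lower. The background is wide: 56% of the 14338 genes tested passed the same threshold, 27.6% higher and 28.4% lower. The libraries of the groups did not overlap in scaled counts for 7 of the 8 genes, beside 59.9% of all genes tested. The median log2 fold change of the 8 was -0.29, beside 0.00 for all genes tested. In bulk RNA, fewer cells in a given phase of the cycle and less RNA per cell cannot be told apart. Levels of a gene are compared between groups in CPM (counts scaled to a library size of 1000000), and levels of different genes in FPKM, which is also divided by gene length.

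**Figure D1:**
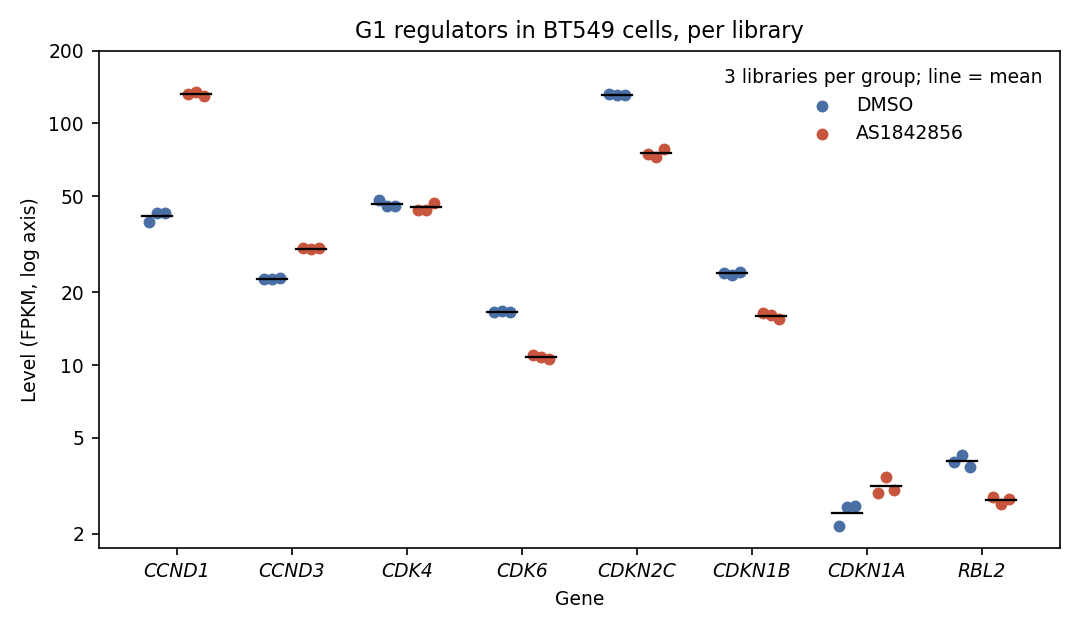
RNA level of the 8 tested G1 regulators in each library, in FPKM on a log axis, with DMSO in blue, AS1842856 in red and a line at the mean of 3 libraries. The 3 AS1842856 libraries lie above DMSO for *CCND1*, *CCND3* and *CDKN1A*, below it for *CDK6*, *CDKN2C*, *CDKN1B* and *RBL2*, and for *CDK4* 2 of them lie below DMSO and 1 among the DMSO libraries.

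**Figure D2:**
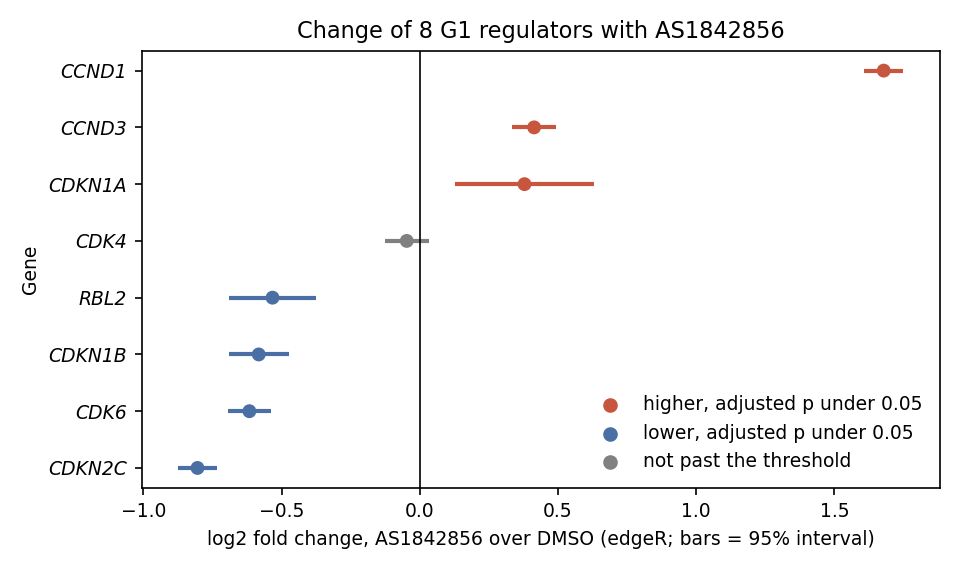
log2 fold change of each tested G1 regulator, AS1842856 over DMSO, from edgeR with its 95% interval as a bar. Intervals lie above 0 for 3 genes and below 0 for 4, and the interval of *CDK4* spans 0.

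The libraries held between 15289500 and 22981832 counts, and the counting floor taken here, 3 counts in a library, corresponds to between 0.131 and 0.195 CPM. TMM factors lay between 0.995 and 1.01, and counts of libraries within a group differed beyond sampling noise (chi-square over its degrees of freedom, 2.32 to 3.12), so all 6 were kept as separate samples. The labels do not say that the libraries came from separate cultures, although the study calls them biological replicates, and the p-values measure only the spread between these libraries. Mesenchymal markers of BT549 were high, with *VIM* at 1322 and *SPARC* at 1196 CPM in DMSO, and while *VIM*, *SPARC* and *CDH2* fell with AS1842856, *FN1* rose from 449.5 to 981 CPM (log2 fold change 1.13, SE 0.03, edgeR adjusted p = 4.76e-69). In contrast, the luminal and hormone receptor genes *EPCAM*, *CDH1*, *ESR1* and *PGR* had between 0 and 8 counts in every library. The luminal keratin *KRT18* was present in DMSO (33.9 CPM) and fell to 3.45 CPM with AS1842856 (log2 fold change -3.30, SE 0.11, edgeR adjusted p = 2.31e-80). Among blood and endothelial markers, *CD3E* and *CDH5* had no count, and *PTPRC* was 1.15 CPM in DMSO and 3.16 CPM with AS1842856 (edgeR adjusted p = 4.99e-07). The summed level of the 4 mesenchymal markers ranged from 538 to 556 FPKM in DMSO and from 451.1 to 458.1 FPKM with AS1842856, that of the 5 luminal markers from 9.48 to 11.5 and from 1.04 to 1.0997 FPKM, and that of the blood and endothelial markers from 0.0810 to 0.169 and from 0.304 to 0.389 FPKM. The mesenchymal sum depends on the scale, since per length *FN1* weighs little (25.8 FPKM in DMSO) beside *VIM* (254.6) and *SPARC* (246.0). The part of all these markers in the changes of the G1 regulators was not tested.

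Promoter sequence is shown for the genes whose start regions lay outside annotated exons or carried a word that factors of this pathway are known to bind. RefSeq windows (GRCh38.p14) of 250 bases before to 50 bases after a start were given for 7 of the 10 genes, in 13 windows, and *CCND1*, *CCND2* and *CDKN1C* had no entry. Words were searched on both strands: the FOXO word GTAAACA, the TCF/LEF word CTTTGAA with its variants CTTTGTA (found for *CCND3* and *RBL2*), CTTTGAT and also CTTTGTT, the E-box CACGTG that MYC and related factors are known to bind, the E2F words TTTCCCGC, TTTCGCGC, TTTGCCGC and TTTGGCGC, and the CHR word TTTGAA, which is contained in the first TCF/LEF word. The lines below give bases 5′ to 3′ on the strand of the gene, with a matched word in capitals. For *CCND3* and *CDK4* only 30 bases around the words are given, and the other lines are the 250 bases before a start. Of the 250 bases before the start, 250 for *CCND3* (first start) and 211 for *CDK4* are annotated as exon, of any gene. The other lines hold no annotated exon base. Not every start of these genes is shown. *CDKN2C*, *RBL2* and *CDK6* are genes that fell, and the *CDK6* line holds none of the words.
CCND3, first start (chr6:42048672-42048701, minus strand): gcgcggaCTTTGTAAACActtcgccactgc
CDK4 (chr12:57752499-57752528, minus strand): gtCACGTGtgatagcaacagatCACGTGgc
CDKN2C, first start (chr1:50960495-50960744, plus strand): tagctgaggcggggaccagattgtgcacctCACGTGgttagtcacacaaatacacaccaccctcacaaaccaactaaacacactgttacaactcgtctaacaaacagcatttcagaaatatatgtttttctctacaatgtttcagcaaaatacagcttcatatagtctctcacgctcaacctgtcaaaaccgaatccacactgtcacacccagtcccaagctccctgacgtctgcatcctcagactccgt
RBL2, downstream start (chr16:53435369-53435618, plus strand): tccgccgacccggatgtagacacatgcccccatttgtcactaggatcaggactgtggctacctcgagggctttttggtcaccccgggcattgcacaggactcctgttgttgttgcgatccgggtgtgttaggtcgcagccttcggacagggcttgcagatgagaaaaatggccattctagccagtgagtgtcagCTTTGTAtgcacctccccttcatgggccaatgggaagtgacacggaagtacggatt
CDK6, downstream start (chr7:92833960-92834209, minus strand): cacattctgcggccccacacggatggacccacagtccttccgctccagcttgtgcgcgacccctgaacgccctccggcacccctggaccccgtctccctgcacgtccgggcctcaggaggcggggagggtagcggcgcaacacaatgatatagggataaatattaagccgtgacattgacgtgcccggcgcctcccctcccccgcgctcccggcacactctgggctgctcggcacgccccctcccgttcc

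In *CCND3* the capitals hold a TCF/LEF word, 6 bases before to 1 base after the start, that shares its last 3 bases with the FOXO word. The FOXO word was in 1 of the 13 windows, beside 3.42% of 35116 RefSeq windows of this length. TCF/LEF words were in 2 of 13 windows, those of *CCND3* and *RBL2*, beside 13.8% of all windows. The E-box was in 4 of 13 windows of 3 genes, beside 7.26% of all windows. Windows of the same gene are not independent, and an excess over all windows was not tested for any word. *CDK4* held 3 copies, of which those shown begin at positions -216 and -196 and the other at -101, counted from the start. *CDKN2C* held 1 copy at each of 2 starts, from positions -220 and -69, and *CDK6* held 1 copy from position 31 after its first start. The CHR word was in 1 window (*RBL2*, first start), beside 15.2% of all windows, and the E2F words were in 0 of 13, beside 3.31%. These are matches of letters in short windows, and gene counts do not tell which start BT549 cells use.

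*CCND1* encodes cyclin D1, the regulatory subunit that activates CDK4 and CDK6, and lies at chr11:69641087-69654474 on the plus strand (GRCh38). The DMSO libraries held 189, 208 and 207 CPM (replicates A, B and C), from 4150, 3198 and 3849 counts. The AS1842856 libraries held 642, 656 and 634 CPM, from 10698, 14983 and 11304 counts. Every AS1842856 library was above every DMSO library, and DMSO replicate A was the lowest of all. The mean rose from 201 ± 10.8 to 644 ± 11.3 CPM (SD, n = 3 each), a log2 fold change of 1.68 (SE 0.04, 95% interval 1.61 to 1.75, edgeR adjusted p = 3.60e-121). This was the largest change among the 8 genes and the 286th largest increase among 14338 genes tested. *LTO1*, which overlaps *CCND1* by 1399 bases on the opposite strand, held counts equal to 13.9% of those of *CCND1* in DMSO and 4.12% with AS1842856, and differed by -0.09 on the log2 scale (edgeR adjusted p = 0.350).

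*CCND3* encodes cyclin D3 and lies at chr6:41934933-42050357 on the minus strand. Its level was 132, 133 and 134 CPM in the DMSO libraries and 178, 176 and 178 CPM in the AS1842856 libraries. The groups were clearly apart, with a spread of about 1 CPM inside each. Levels rose from 133 ± 1.11 to 177 ± 1.38 CPM (SD, n = 3 each), with a log2 fold change of 0.41 (SE 0.04, 95% interval 0.34 to 0.49, edgeR adjusted p = 3.33e-20). The interval of *CCND3* lay wholly below that of *CCND1*.

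*CCND2*, the gene of cyclin D2 at chr12:4273772-4305350, had 0 counts in all 6 libraries, which allows up to 0.195 CPM in the shallowest of them. No comparison was possible for it. *CCND1* and *CCND3* together therefore made up the D-type cyclin RNA of these cells. Per length, their sum was 61.6, 65.5 and 65.6 FPKM in DMSO and 163, 165 and 161 FPKM with AS1842856, a ratio of means of 2.54. The *CCND1* share of this sum was 64.5% ± 1.11 in DMSO and 81.4% ± 0.368 with AS1842856 (SD, n = 3 each). *CCND3* made up the rest, 35.5% and 18.6%, so its share fell while its level rose.

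*CDK4* encodes the kinase partner of the D-type cyclins that was most abundant per length here, and lies at chr12:57747727-57756013 on the minus strand. The E-box copies shown above lie before its RefSeq start but inside this annotated interval. The DMSO libraries held 154, 145 and 145 CPM and the AS1842856 libraries held 140.0, 139 and 150.1 CPM. The groups overlapped, since AS1842856 replicate C was above DMSO replicates B and C. The means were 148 ± 5.07 and 143 ± 6.01 CPM (SD, n = 3 each), a log2 fold change of -0.05 (SE 0.04, edgeR adjusted p = 0.331). The 95% interval ran from -0.13 to 0.03, so a small change of either sign could not be told apart from none at this spread. Among genes overlapping *CDK4* on the opposite strand, *TSPAN31* held counts equal to 6.20% of its counts, with a log2 fold change of 0.16 (edgeR adjusted p = 0.281), and *MARCH9* 1.58%, with -0.72 (edgeR adjusted p = 0.00994).

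*CDK6* encodes the other cyclin D-dependent kinase and lies at chr7:92604921-92836594 on the minus strand. In DMSO its level was 205, 206 and 204 CPM, and with AS1842856 it was 136, 134 and 131 CPM. No library of one group came near the other. Levels fell from 205 ± 1.27 to 134 ± 2.09 CPM (SD, n = 3 each), to 65.2% of DMSO, a log2 fold change of -0.62 (SE 0.04, 95% interval -0.69 to -0.54, edgeR adjusted p = 1.35e-37). Per length *CDK4* was above *CDK6* in every library, and the *CDK6* share of their sum went from 26.4% ± 0.669 to 19.5% ± 0.866. Their summed level was 62.9 ± 1.66 FPKM in DMSO and 55.7 ± 1.68 FPKM with AS1842856 (SD, n = 3 each), and the libraries of the groups did not overlap.

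**Figure D3:**
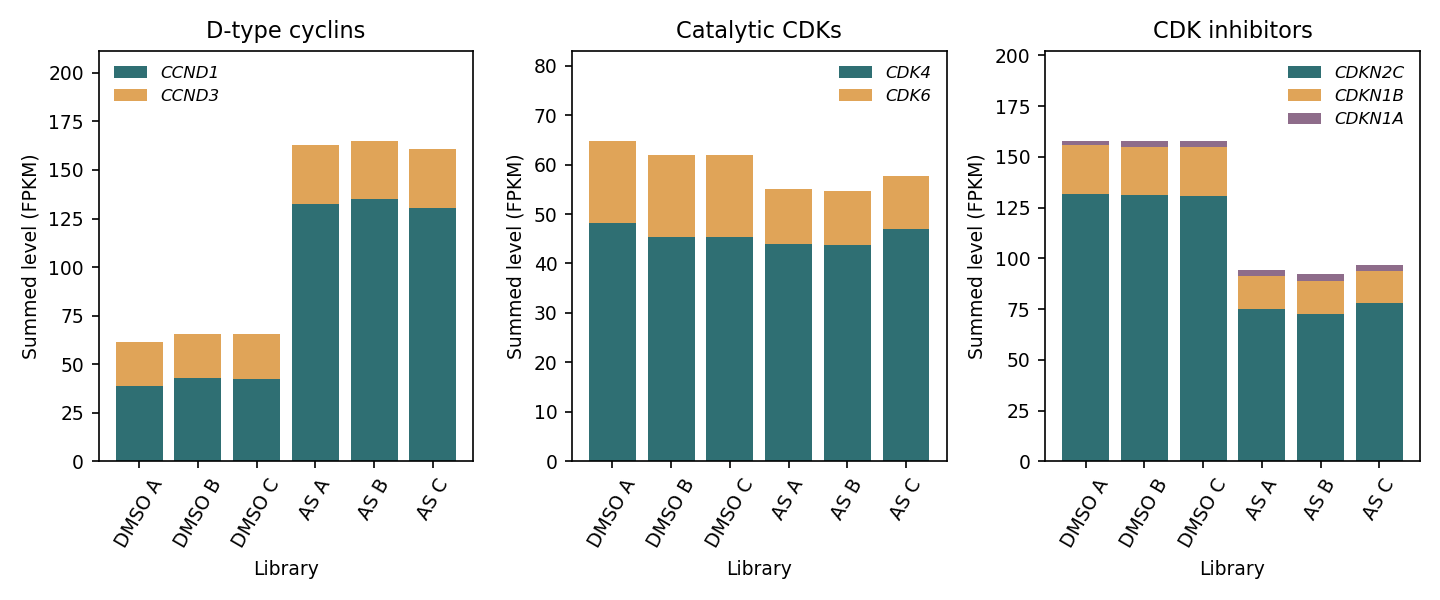
Summed RNA level per library, in FPKM from 0, stacked by gene, with AS for AS1842856. The panels hold *CCND1* and *CCND3* (left), *CDK4* and *CDK6* (middle) and *CDKN2C*, *CDKN1B* and *CDKN1A* (right). *CCND2* and *CDKN1C*, at or near 0 in every library, are not drawn. *CCND1* fills most of the taller AS1842856 columns on the left, and *CDKN2C* fills most of every column on the right.

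*CDKN2C* encodes p18, an INK4 inhibitor that binds CDK4 and CDK6, and lies at chr1:50960745-50974633 on the plus strand, just after the first promoter sequence printed for it. It had the highest level per length of the 10 genes in DMSO. The DMSO libraries held 439.8, 439.6 and 436 CPM, from 9656, 6751 and 8105 counts. The AS1842856 libraries held 249.98, 243 and 261 CPM, from 4166, 5544 and 4654 counts. All 3 were far below DMSO. The mean fell from 439 ± 2.01 to 251 ± 9.16 CPM (SD, n = 3 each), to 57.3% of DMSO, with a log2 fold change of -0.80 (SE 0.04, 95% interval -0.87 to -0.73, edgeR adjusted p = 3.94e-60). This was the largest decrease among the 8 genes.

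*CDKN1B* encodes p27, which holds cyclin E-CDK2 inactive in resting cells, and lies at chr12:12715058-12722371 on the plus strand. DMSO libraries held 67.8, 67.1 and 68.8 CPM, while AS1842856 libraries held 46.4, 45.7 and 44.0 CPM. The groups did not overlap. The mean fell from 67.9 ± 0.860 to 45.3 ± 1.24 CPM (SD, n = 3 each), to 66.8% of DMSO, a log2 fold change of -0.58 (SE 0.06, 95% interval -0.69 to -0.47, edgeR adjusted p = 1.26e-20). *AC008115.3*, annotated inside the gene on the same strand, held counts equal to 1.99% of those of *CDKN1B* and also fell (log2 fold change -0.94, edgeR adjusted p = 0.0198).

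*CDKN1A* encodes p21, the CIP/KIP inhibitor best known as a target of p53, and lies at chr6:36676460-36687339 on the plus strand. It was expressed at a low level, with 145, 122 and 149 counts in DMSO (6.60, 7.94 and 8.02 CPM) and 151, 242 and 167 counts with AS1842856 (9.06, 10.6 and 9.37 CPM). The groups did not overlap, although the lowest AS1842856 library (9.06 CPM) lay close to the highest DMSO library (8.02 CPM). Its mean rose from 7.52 ± 0.796 to 9.67 ± 0.814 CPM (SD, n = 3 each), a log2 fold change of 0.38 (SE 0.13, 95% interval 0.13 to 0.63, edgeR adjusted p = 0.00726). This call was lost without DMSO replicate A (0.28, edgeR adjusted p = 0.0890), without AS1842856 replicate B (0.30, edgeR adjusted p = 0.0806) and in DESeq2 (0.37, adjusted p = 0.0692). It held in 11 of 15 alternatives, while the other 6 calls held in all 15.

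*CDKN1C*, the gene of p57 at chr11:2883213-2885773 on the minus strand, had 4, 1 and 0 counts in DMSO and 0, 1 and 0 with AS1842856. Both groups lie around the counting floor, so it was not tested and no fold is given. The 4 inhibitors among the genes summed to 158 ± 0.257 FPKM in DMSO and 94.4 ± 2.15 FPKM with AS1842856 (SD, n = 3 each), a ratio of 0.598. *CDKN2C* was 83.2% of this sum in DMSO and 79.7% with AS1842856. *CDKN1B* went from 15.2% to 16.99%, and *CDKN1A* from 1.55% to 3.34%.

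*RBL2* encodes p130, the pocket protein that binds E2F4 and the MuvB core in resting cells, and lies at chr16:53433977-53491649 on the plus strand. Its level was 29.2, 31.4 and 27.9 CPM in DMSO and 20.9, 19.7 and 20.6 CPM with AS1842856. The highest AS1842856 library lay well below the lowest DMSO library. The mean fell from 29.5 ± 1.78 to 20.4 ± 0.667 CPM (SD, n = 3 each), to 69.1% of DMSO, a log2 fold change of -0.53 (SE 0.08, 95% interval -0.69 to -0.38, edgeR adjusted p = 9.39e-10). *AKTIP*, which overlaps *RBL2* by 610 bases on the opposite strand, held counts equal to 18.1% of those of *RBL2* in DMSO and 21.5% with AS1842856, with a log2 fold change of -0.27 (edgeR adjusted p = 0.164).

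Ranked by level per length, the order in DMSO was *CDKN2C* (131 FPKM), *CDK4* (46.3), *CCND1* (41.4), *CDKN1B* (24.0), *CCND3* (22.8), *CDK6* (16.6), *RBL2* (4.01) and *CDKN1A* (2.45). With AS1842856 the order was *CCND1* (133 FPKM), *CDKN2C* (75.3), *CDK4* (44.9), *CCND3* (30.4), *CDKN1B* (16.03), *CDK6* (10.8), *CDKN1A* (3.15) and *RBL2* (2.77). Among these 8 genes no neighbours in either order overlapped in their 3 libraries. *CDKN1C* and *CCND2* shared the last place, with *CDKN1C* at most 0.0732 FPKM. Compared with DMSO, *CCND1* moved to the first place, and *CCND3* and *CDKN1B*, as well as *CDKN1A* and *RBL2*, changed places.

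Of the 3 INK4 genes outside this set, 1 rose and 2 did not pass the threshold. *CDKN2A*, the gene of p16 and ARF, held 665 CPM in DMSO and 679.6 CPM with AS1842856 (153 and 156 FPKM), a log2 fold change of 0.03 (95% interval -0.04 to 0.10, edgeR adjusted p = 0.478), and gene counts cannot separate its products. Its level per length was thus above that of *CDKN2C*, and the sum of inhibitors given above does not include it. *CDKN2B* (p15) rose from 41.6 to 62.9 CPM (log2 fold change 0.59, SE 0.06, edgeR adjusted p = 1.05e-19). An antisense gene overlaps *CDKN2B*, and counting is not stated to have used strand. For *CDKN2D* (p19) the levels were 14.95 and 15.5 CPM (edgeR adjusted p = 0.690).

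*CDK2* and its activators were tested as a list of 8 genes. Of these 1 rose, 3 fell and 4 did not pass, with a median log2 fold change of 0.03 (0.00 for all genes tested). *CDK2* went from 113 to 118 CPM (0.06, edgeR adjusted p = 0.223), *CCNE1* from 21.8 to 23.6 CPM (0.11, edgeR adjusted p = 0.277) and *CCNE2* from 52.4 to 51.6 CPM (-0.01, edgeR adjusted p = 0.884), all 3 short of the threshold. *CCNA2*, the gene of cyclin A2, fell from 239 to 177 CPM (-0.43, edgeR adjusted p = 2.10e-23). The CDK-activating kinase subunit genes *CCNH* (-0.46) and *MNAT1* (-0.27) fell, and the phosphatase gene *CDC25A* rose (0.20).

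Of 17 pocket protein, E2F and MuvB genes 6 rose, 5 fell and 6 did not pass, with a median of 0.03. *RB1*, the retinoblastoma gene, fell from 31.6 to 24.3 CPM (log2 fold change -0.39, SE 0.08, edgeR adjusted p = 2.37e-06). *RBL1* (p107), the remaining pocket protein gene, rose from 48.5 to 59.1 CPM (0.29, edgeR adjusted p = 2.89e-06) and was named after its values were seen. Per length, the *RBL2* share of the 3 pocket protein genes was 23.6% ± 1.04 in DMSO and 16.9% ± 0.625 with AS1842856, that of *RB1* was 28.7% and 22.8%, and that of *RBL1* was 47.7% and 60.2%. Among E2F genes, *E2F2* fell from 36.4 to 13.5 CPM (-1.43, edgeR adjusted p = 1.69e-42) and *E2F8* fell (-0.55), while *E2F5* (0.59) and *E2F7* (0.50) rose.

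Among 13 genes for the turnover of G1 cyclins and CDK inhibitors 4 rose, 5 fell and 4 did not pass, with a median of 0.00. *SKP2* and *CKS1B*, which encode parts of the ubiquitin ligase that recognizes p27, fell by 0.33 and 0.46 on the log2 scale (edgeR adjusted p = 5.14e-11 and 5.34e-22). *CUL4A*, a cullin gene, fell by 0.46. *FBXO31*, whose protein is known to target cyclin D1, rose by 0.29 (edgeR adjusted p = 0.000512).

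Of 12 genes for transcription factors known to act on the G1 regulators 5 rose, 6 fell and 1 did not pass, with a median of -0.09. *FOXO1* rose from 4.22 to 13.8 CPM (log2 fold change 1.72, SE 0.13, edgeR adjusted p = 4.16e-28) and *FOXO3* from 46.8 to 149 CPM (1.67, SE 0.05, edgeR adjusted p = 3.70e-96). *FOXO4*, named after its values were seen, was low and fell from 1.89 to 0.908 CPM (-1.05, SE 0.33, edgeR adjusted p = 0.00390). RNA level does not measure the DNA binding that AS1842856 is known to hinder. *MYC* fell from 184 to 73.4 CPM (-1.33, SE 0.04, edgeR adjusted p = 1.47e-84), and *SMAD3*, a mediator of TGF-beta signals, fell from 102 to 41.5 CPM (-1.30, edgeR adjusted p = 4.11e-67).

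Genes that act later in the cycle were mostly lower. Of 13 S phase genes 10 fell, 2 rose and 1 did not pass, with a median of -0.24, beside 28.4% of all genes tested lower. The helicase subunit genes *MCM5* (-0.60) and *MCM6* (-0.57) and the ribonucleotide reductase gene *RRM2* (-0.55) fell, whereas *CDT1*, a replication licensing gene, rose from 63.4 to 106 CPM (0.74, edgeR adjusted p = 4.37e-37). Of 10 mitosis genes 8 fell, none rose and 2 did not pass, with a median of -0.29. *TOP2A* fell from 513 to 352 CPM (-0.54, edgeR adjusted p = 1.46e-37), and *AURKB* (-0.46), *BUB1* (-0.34) and *CDC20* (-0.31) fell as well. *CCND1* and *CCND3* were therefore higher in the same libraries in which most listed S phase and mitosis genes were lower.

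**Figure D4:**
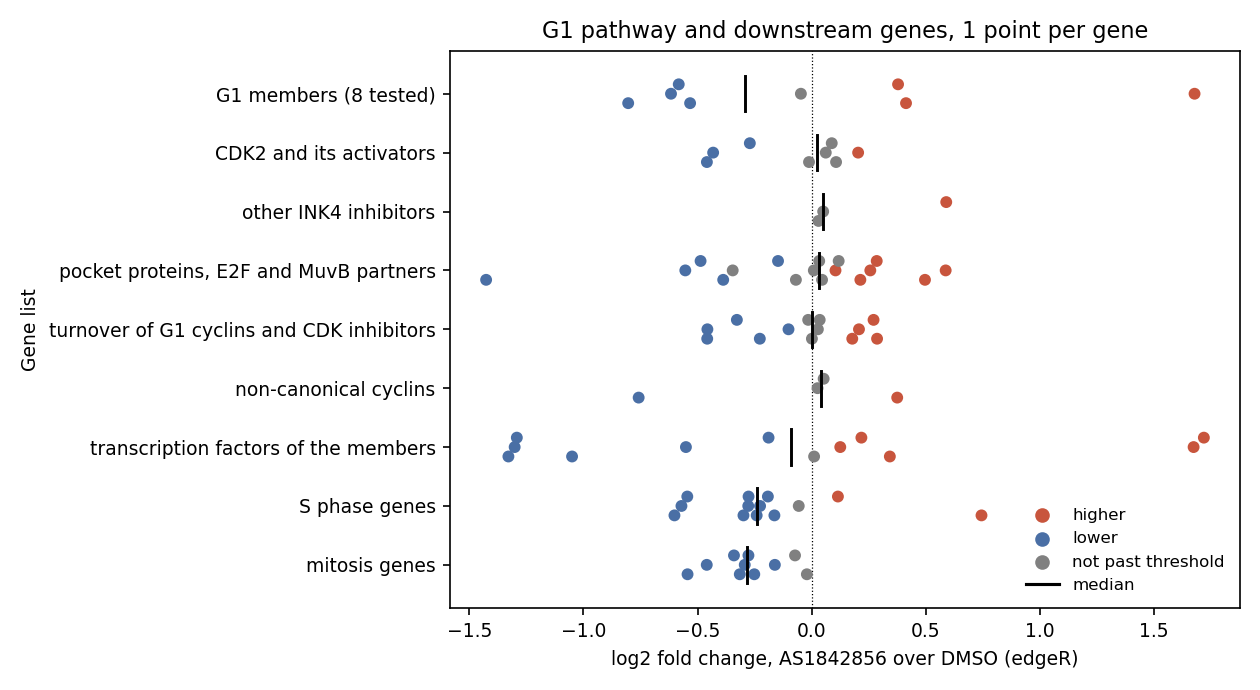
log2 fold change, AS1842856 over DMSO (edgeR), of each tested gene in the G1 set and in 8 lists of related genes, 1 point per gene, with a bar at the median of each list. Red and blue points passed an adjusted p of 0.05 as higher or lower and grey points did not, and mitosis genes hold no red point.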

How the data were processed

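RNA-Seq of BT549 cells was available for 3 DMSO and 3 AS1842856 libraries, grouped by the treatment in the labels. The authors deposited raw counts per gene in 1 table and FPKM values, divided by gene length and library size, per library. The study's methods name STAR for mapping, and the submitters' processing notes list CASAVA and Bowtie 0.12.2 with GRCh38. The counting tool, the annotation and the use of strand are not given in the sources used here. All 58735 identifiers were found in GENCODE release 29 (Ensembl 94, GRCh38), which gave symbols and positions. FPKM tables held 25015 genes with at least 2 counts in sum.

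Counts were tested in R 4.3.3 with edgeR 4.0.16 over all genes kept by filterByExpr (minimum count 10, minimum total 15), which left 14338 genes with 99.9% of counts. TMM scaling was used, the contrast came from glmQLFTest after a robust glmQLFit, and the Benjamini-Hochberg adjustment ran over all genes at a threshold of 0.05. CPM values are scaled counts, the SE is the fold change divided by the root of F, and intervals are at 95%. The common biological coefficient of variation was 0.0374. The floor of 3 counts covers counting error only, because PCR copies cannot be told from separate molecules here. Levels were compared between genes in FPKM. The fit was first run on simulated data with far fewer changed genes than here, and that run is not used as support.

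The genes, lists and tests were chosen with earlier results of these data known, and the lists were written from general knowledge. The value of 1 marker gene is not reported here. Named were all 10 genes, the 4 called genes with the largest change of each list, *RB1*, *CCNE1*, *CCNE2*, *CDK2*, *CDKN2A*, *CDKN2B*, *CDKN2D*, *FOXO1*, *FOXO3* and *MYC*, and overlapping genes with at least 1% of a gene's counts. Alternatives were DESeq2 1.42.0, its size factors in edgeR, library totals, an unfiltered table, a minimum mean of 50 counts, limma-trend (limma 3.58.1) on FPKM with a pseudocount of 1 or 0.1 inside the log2 for genes averaging 0.5 FPKM or more, the same with a pseudocount of 1 on unfiltered genes, each library left out, and the replicate letter as a block. Leaving libraries out of the shares was added after seeing the data.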

Additional observations from a re-analysis of the deposited data

How the results depend on the processing

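Of the 8 G1 regulators tested, 7 kept their direction and their side of the threshold under all 15 alternatives (9 with all libraries and 6 without 1 library), *CDK4* among them as not called (adjusted p between 0.121 and 0.730). *CDKN1A* kept its direction but was called in 11 of 15, with adjusted p between 0.00695 and 0.0890. It lost the call in DESeq2 (0.37, adjusted p = 0.0692), in limma on log2(FPKM + 1) with no filter (0.27, adjusted p = 0.0618) and without DMSO replicate A or AS1842856 replicate B, and its log2 fold change without 1 library ranged from 0.28 to 0.43. The number of genes called in all ranged from 6523 (limma, no filter) to 8030 with all libraries and from 7427 to 7678 without 1 library, beside 8029. Of the 86 tested list and marker genes, 73 kept call and direction under every alternative, 9 lost a call under at least 1, 4 gained one and none reversed. With the replicate block, 7862 genes were called, and all 7 calls of the G1 regulators held. Same-letter libraries did not deviate together (correlation 0.042 for A, -0.012 for B and -0.0033 for C), not every library correlated best with its own letter, and the letters were not taken as pairs. From CPM in place of FPKM, which is not per length, the *CCND1* share of D-type cyclins was 60.2% in DMSO and 78.4% with AS1842856, and that of *CCND3* 39.8% and 21.6%. The *CDKN2C* share of the inhibitors was 85.3% and 82.0%, and that of *CDKN1B* 13.2% and 14.8%, a shift that comes from the gene lengths, since the counts are the same. By CPM the *CDK6* share of *CDK4* and *CDK6* was 58.1% and 48.3%, so *CDK6* was the larger in DMSO, whereas per length *CDK4* was the larger in every library. Depth limits *CCND2* and *CDKN1C*, for which no value above the floor could be compared.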

Other observations

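Ratios between members within a library do not depend on how libraries are scaled, and 5 were computed after the values had been seen. In FPKM, *CCND1* over *CCND3* was 1.72, 1.88 and 1.85 in DMSO and 4.32, 4.48 and 4.28 with AS1842856. *CDK4* over *CDK6* was 2.90, 2.72 and 2.75 in DMSO and 3.99, 4.03 and 4.42 with AS1842856. *CCND1* over *CDKN1B* went from a mean of 1.73 ± 0.0951 to 8.27 ± 0.186, *CDKN1B* over *CDKN1A* from 9.87 ± 1.104 to 5.11 ± 0.439, and *CDKN2C* over *CDKN1B* from 5.47 ± 0.0918 to 4.70 ± 0.287 (SD, n = 3 each). In all 5 the groups did not overlap, and the two-sided exact permutation p was 0.1 for each. That is the smallest that 3 against 3 libraries can give, so adjustment over the 5 leaves it at 0.1. Each pair joined genes already seen to change by different amounts, so the lack of overlap is no separate support. Summed D-type cyclins over the 4 summed inhibitors gave 0.390, 0.415 and 0.416 in DMSO and 1.73, 1.79 and 1.66 with AS1842856, without counting *CDKN2A*, *CDKN2B* or *CDKN2D* among the inhibitors.

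Cyclins outside the core G1 set also differed in direction. *CCNG2*, the gene of cyclin G2, which is linked to cell cycle exit, fell from 34.9 to 20.6 CPM (log2 fold change -0.76, SE 0.08, edgeR adjusted p = 1.59e-18). *CCNI*, the gene of cyclin I, rose from 343 to 445 CPM (0.38, SE 0.03, edgeR adjusted p = 2.80e-21). Of the 4 cyclins of this kind the remaining genes did not pass the threshold.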
